A study of Piaractus mesopotamicus and Piaractus mesopotamicus x Colossoma macropomum and Colossoma macropomum with 15 samples.

Results

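The miR-99, miR-100 and miR-125 miRNAs were followed in the fast muscle of 3 fish genotypes. They were taken by name as every row for miR-99, miR-100, miR-125a, miR-125b or miR-125c, with all copies and both arms, which gave 20 of the 595 loci counted and 11 of the 369 mature miRNA names. The names carry the prefix dre because reads were aligned to the hairpins of zebrafish (Danio rerio). The fish were untreated juveniles of pacu (PC, Piaractus mesopotamicus), of tambaqui (TQ, Colossoma macropomum) and of their hybrid tambacu (TC, from a tambaqui female and a pacu male), with 5 separate fish of each genotype. Small RNA of each fish was sequenced as its own library, and the hybrid was compared with each parental species (TC vs. PC, TC vs. TQ) and the parental species with each other (PC vs. TQ). In each log2FC the genotype named first is set against the one named last.

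A miRNA is cut from a hairpin that can yield a mature strand from its 5′ arm (5p) and another from its 3′ arm (3p), of which usually 1 accumulates. A mature strand finds messenger RNAs mainly through its seed, the run of bases 2 to 8. The miR-99 and miR-100 sequences form an old family that in mammals lowers the kinase mTOR and the IGF1 receptor, which drive growth. The miR-125 sequences are relatives of lin-4, the founding miRNA of Caenorhabditis elegans. miR-125b lowers p53 in zebrafish and human cells and slows the differentiation of mouse myoblasts. In many animals the genes of these miRNAs lie beside a let-7 gene and can be copied as a shared transcript. The mature sequences on which the results turn are printed 5′ to 3′ as the D. rerio precursors give them, with T for U and the seed in capitals, so that shared seeds can be seen.
dre-miR-100-5p: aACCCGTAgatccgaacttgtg
dre-miR-99: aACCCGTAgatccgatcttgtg
dre-miR-125a: tCCCTGAGacccttaacctgtg
dre-miR-125b-5p: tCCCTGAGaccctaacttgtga
dre-miR-125c-5p: tCCCTGAGaccctaactcgtga
dre-miR-100-3p: cAAGCTTGtatctataggtatc
dre-miR-100-2-3p: cAAGCTCGtgtctataggtatg
dre-miR-125b-2-3p: cGGGTTGGgttctcgggagct

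miR-100-5p and miR-99 shared the seed ACCCGTA, which no other of the 345 mature names whose sequence was read carried. They differed at 1 base of 22, written A16T, where positions are counted from 1 at the 5′ end and the base of miR-100-5p stands first. miR-125a, miR-125b-5p and miR-125c-5p shared the seed CCCTGAG, again with no other name, and miR-125b-5p and miR-125c-5p differed by T18C. The 3p arms carried seeds of their own. The 3p arms of the 2 miR-100 hairpins differed at 3 positions, T7C, A10G and C22G, and the first of these lies in the seed.

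Of the 20 loci, 10 had a count in any fish and 10 were at 0 in all 15 fish. The counted names were miR-100-5p, miR-99 and miR-125a, each with 2 copies, and the 3p arms miR-100-3p, miR-125b-2-3p, miR-125b-1-3p and miR-125c-3p. miR-125b-1-3p had 4 counts and miR-125c-3p had 1 count over all fish, so the comparisons rested on 8 loci of 5 names. Of the 10 loci at 0, 8 were those of miR-125b-5p and miR-125c-5p, and the others were miR-125b-3-3p and miR-100-2-3p. A floor of 3 counts per library corresponded to between 0.463 and 1.33 counts for each 1000000 of a library (CPM), and it covers counting error only. The library sizes behind the CPM count every copy of a name. A CPM is therefore not on the scale of the shares given below, which take a single copy. The 8 loci of miR-125b-5p and miR-125c-5p lay pairwise on the same interval of 4 hairpins, bases 46 to 67 of mir-125b-1, 14 to 35 of mir-125b-2, 31 to 52 of mir-125b-3 and 14 to 35 of mir-125c. On the mir-125b hairpins miR-125c-5p was placed at 95% identity, and so was miR-125b-5p on mir-125c. These placements lie on hairpins of the other name and are not further copies of the sequence. Among all loci, 171 of the 540 whose place was read overlapped another, and 170 of these were at 0 while 1 had 1 count. Of the 369 loci that overlapped no other, 117 were at 0. The part of the shared places in the zeros of miR-125b-5p and miR-125c-5p was not tested, so these zeros were read neither as low levels nor as absence. Whether bases that differ between zebrafish and these fish had a part in any of the 10 loci at 0 was not tested either.

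Libraries held between 2422820 and 5669084 counts, with every copy of a name counted. PC fish 8 and TC fish 3 stood apart with the lowest TMM factors, the scaling factors of edgeR, at 0.621 and 0.744 against up to 1.43 in TQ fish 8. The label muscle was checked with 7 names of striated muscle miRNAs, of which 3 had counts and miR-133a-3p, miR-133a-5p, miR-133b-3p and miR-206-5p were at 0. Their summed share of counts lay at 0.114–0.234% in PC, 0.117–0.272% in TC and 0.166–0.215% in TQ. The sums of 3 erythroid names were 0.311–0.975% in PC, 0.792–2.78% in TC and 0.354–2.31% in TQ, and those of the leukocyte list, with 5 of 6 names counted, were 0.0795–0.205%, 0.111–0.196% and 0.188–0.229%. The slow muscle names, 2 in all, had sums of 0.0372–0.156% (PC), 0.0526–0.162% (TC) and 0.0147–0.0846% (TQ), with medians of 0.13%, 0.122% and 0.0429%. The 4 pancreas names summed to 0.00191–0.00656%, 0.0059–0.00863% and 0.00667–0.00942%, and the liver name had 0.00103–0.00494% over all fish. As counted, all 6 lists were small beside the miR-99 and miR-100 sequences, and their part in the differences below was not tested. The striated muscle sums hold only the 3 names with counts, and why the others were at 0 was not tested. In a bulk sample, fewer cells of a type and less RNA per cell cannot be told apart.

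miR-100-5p and miR-99 were among the most counted miRNAs of this muscle. With a single copy of each mature name counted, miR-199-5p took 31.6% ± 3.56 of the counts (SD, n = 15), miR-100-5p came second with 24.1% ± 4.66 and the third, miR-99, took 10.2% ± 3.12. miR-21, the fourth, had 3.94% ± 0.978. miR-125a was 29th of the names with 0.389% ± 0.0836, and the 3p arms were rare, with miR-100-3p 109th at 0.00589% and miR-125b-2-3p 134th at 0.00179%. All the miR-99, miR-100 and miR-125 names together took 34.7% ± 7.55 of the counts, or 32.1% ± 7.1 when every copy was counted. The order of names is an order of counts, not of molecules. The 170 loci at 0 whose places overlapped another added nothing to this order or to the total of counts. Whether their miRNAs were abundant was not tested.

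The joint share was 40.3%, 31.4%, 25.5%, 35.1% and 54.9% in PC fish 10, 3, 4, 5 and 8. In TC fish 3, 4, 5, 6 and 8 it was 45.5%, 31.3%, 32.3%, 35.4% and 29.6%. In TQ fish 1, 2, 3, 6 and 8 it was 36.2%, 29.6%, 35.8%, 30.9% and 26.8%. PC held both the lowest and the highest fish, and the ranges of the 3 genotypes overlapped. The means were 37.4% ± 11.1 in PC, 34.8% ± 6.33 in TC and 31.9% ± 4.05 in TQ (SD, n = 5 each). TC differed from PC by −2.62 percentage points and from TQ by 2.92, and PC differed from TQ by 5.54, with two-sided exact permutation p-values of 0.6905, 0.460 and 0.389. None of the 12 comparisons of a share, which also took miR-100-5p, miR-99 and miR-125a alone, passed after Benjamini-Hochberg adjustment (padj of at least 0.898). Without TC fish 3 the difference of TC from TQ was 0.256 points. Without PC fish 8 that of PC from TQ was 1.19, and without PC fish 4 it was 8.53. The shares of miR-100-5p and miR-199-5p summed to 55.7% ± 2.84 over the 15 fish, between 50.5% and 60.7%.

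**Figure D1:**
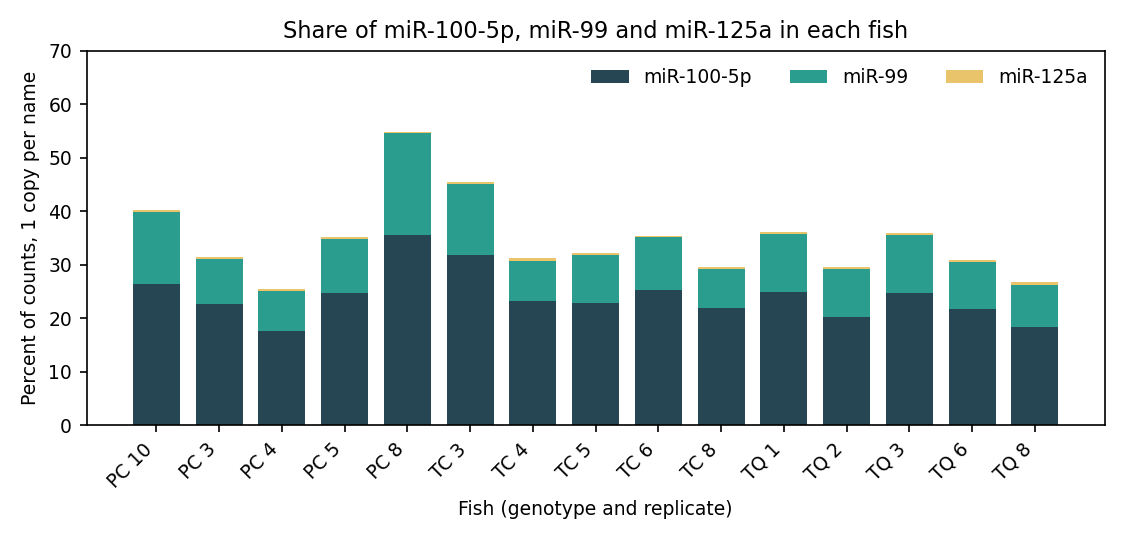
Percent of all counts taken by miR-100-5p, miR-99 and miR-125a in each of the 15 fish, with 1 copy of each name counted. Bars are stacked and start at 0. PC fish 8 (54.9% with the 3p arms) and TC fish 3 (45.5%) stand highest, and miR-125a is a thin band in every fish.

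On the TMM-scaled CPM, miR-99 and miR-100-5p varied most of the members between fish of a genotype. The coefficient of variation of the CPM within a genotype, averaged over the 3 genotypes, was 46.5% for miR-99 and 38.2% for miR-100-5p, 13th and 30th highest of 152 names with a median of 21.9%. It was 24.3% for miR-125b-2-3p, 17.4% for miR-125a and 16.1% for miR-100-3p. Between the lowest and the highest of the 15 fish, miR-99 spanned 5.78-fold, miR-100-5p 4.58-fold, miR-125b-2-3p 2.65-fold, miR-100-3p 1.93-fold and miR-125a 1.85-fold. As shares of all counts the order differed. Over the 15 fish the share of miR-100-3p ran from 0.00235% to 0.0102% and that of miR-125b-2-3p from 0.00114% to 0.00368%. Relative to size these spans were wider than those of miR-99 (7.37% to 19.0%), miR-125a (0.285% to 0.616%) and miR-100-5p (17.6% to 35.5%).

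miR-100-5p, the main strand of the miR-100 hairpins, was not called between any genotypes. In PC fish 10, 3, 4, 5 and 8 its TMM-scaled level was 130010, 120018, 60474, 98797 and 277011 CPM. In TC fish 3, 4, 5, 6 and 8 it was 204375, 110483, 107003, 143334 and 115045 CPM. In TQ fish 1, 2, 3, 6 and 8 it was 107983, 73467, 110510, 99860 and 60713 CPM. TQ lacked the high fish seen in PC and TC, but the genotypes overlapped. The edgeR quasi-likelihood log2FC was −0.01 (SE 0.33, padj 0.979) between TC and PC, 0.59 (SE 0.33, padj 0.190) between TC and TQ, and 0.60 (SE 0.33, padj 0.194) between PC and TQ. The padj between TC and TQ was 0.0477 with the fit limited to those genotypes and 0.0491 without PC fish 4 and PC fish 8, with the log2FC under the 0.75 that a call also needed. Without PC fish 8, the log2FC in PC vs. TQ was 0.18, and scaled by total counts the TQ comparisons gave 0.20 for TC and 0.22 for PC.

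miR-99, which differs from miR-100-5p at a single base, had the same high fish. Copy 1 stood at 66674, 44590, 25654, 40423 and 148371 CPM in PC fish 10, 3, 4, 5 and 8. It stood at 86180, 35449, 41962, 55224 and 38737 CPM in TC fish 3, 4, 5, 6 and 8. TQ fish 1, 2, 3, 6 and 8 had 46941, 32856, 48612, 41442 and 26151 CPM. PC fish 8 and TC fish 3 were again the highest and PC fish 4 the lowest, and all genotypes overlapped. The log2FC of copy 1 by edgeR was −0.34 (SE 0.38, padj 0.727) between TC and PC, 0.39 (SE 0.38, padj 0.446) between TC and TQ, and 0.73 (SE 0.39, padj 0.182) between PC and TQ. It was 0.13 between TC and TQ without TC fish 3, and 0.18 between PC and TQ without PC fish 8.

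On the TMM-scaled CPM, miR-125a, the only CCCTGAG strand with counts, was the steadiest of the 5p strands. Its copy 2 had 1826, 2251, 1425, 1354 and 2220 CPM in PC fish 10, 3, 4, 5 and 8. The TC fish 3, 4, 5, 6 and 8 had 2375, 2269, 2004, 1869 and 1870 CPM. The TQ fish 1, 2, 3, 6 and 8 had 1704, 1534, 1282, 1494 and 2043 CPM. The TC fish lay above 4 of the 5 TQ fish, and TQ fish 8 lay among them. The log2FC by edgeR was 0.20 (SE 0.16, padj 0.548) between TC and PC, 0.37 (SE 0.16, unadjusted p = 0.0389, padj 0.111) between TC and TQ, and 0.17 (SE 0.16, padj 0.476) between PC and TQ. Without TQ fish 8 it was 0.51 between TC and TQ (padj 0.0422 by edgeR), below the log2FC minimum of 0.75 that a call needed.

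miR-100-3p, the opposite strand of mir-100-1, was higher in every TQ fish than in every TC fish, at counts of 55 to 212 per library. How well its zebrafish letters match the sequence of each genotype was not tested. The level of miR-100-3p was 21.5, 19.5, 32.7, 25.2 and 18.4 CPM in PC fish 10, 3, 4, 5 and 8. In TC fish 3, 4, 5, 6 and 8 the level was 23.8, 19.7, 25.3, 19.2 and 24.4 CPM. TQ fish 1, 2, 3, 6 and 8 showed 35.4, 33.0, 26.4, 34.8 and 33.7 CPM. The TC and TQ levels did not overlap, which was so in either direction for 17.1% of the 199 tested loci, and among PC only fish 4 reached the TQ levels. The log2FC by edgeR was −0.54 (SE 0.19, padj 0.0397) between TC and TQ, −0.47 (SE 0.19, padj 0.0834) between PC and TQ, and −0.07 (SE 0.19, padj 0.826) between TC and PC. In TC vs. TQ the padj passed 0.05, as it did for 26.6% of the loci, but the log2FC missed the minimum of 0.75 that a call also needed. That padj ranged from 0.0253 to 0.142 over the alternatives, and it was above 0.05 without PC fish 5, without TC fish 3, 4, 6 or 8, and without TQ fish 1, 2, 6 or 8, up to 0.13.

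miR-125b-2-3p was the rarest tested strand, at counts of 17 to 71 per library. PC fish 10, 3, 4, 5 and 8 had 6.08, 7.41, 5.41, 6.48 and 8.86 CPM of it. TC fish 3, 4, 5, 6 and 8 had 8.77, 6.65, 9.49, 6.57 and 7.98 CPM. TQ fish 1, 2, 3, 6 and 8 had 14.3, 13.4, 6.44, 8.40 and 7.08 CPM. TQ fish 1 and 2 were the only fish above 10 CPM, and the genotypes overlapped. The log2FC by edgeR was 0.22 (SE 0.25, padj 0.740) between TC and PC, −0.33 (SE 0.25, padj 0.361) between TC and TQ, and −0.55 (SE 0.25, unadjusted p = 0.0453, padj 0.131) between PC and TQ.

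**Figure D2:**
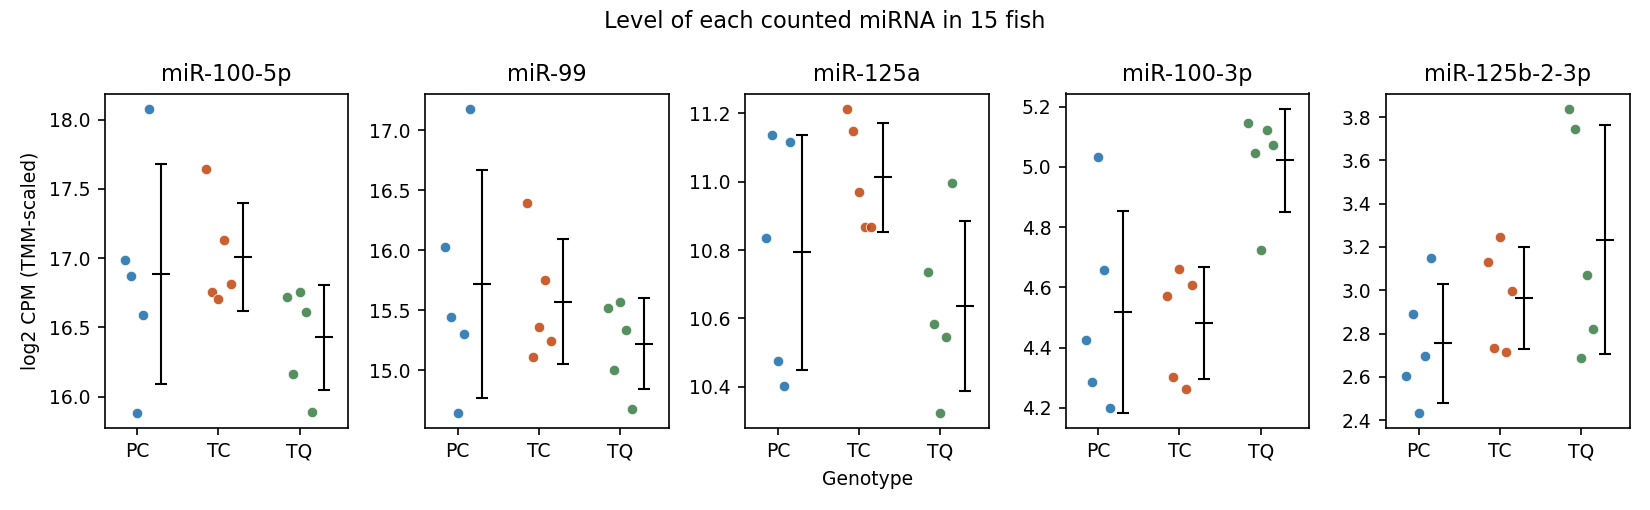
Level of each tested miRNA as log2 of the TMM-scaled CPM, by genotype. Points are fish and the bars beside them are the mean ± SD of 5 fish. Each panel has its own axis. The 5 TQ points of miR-100-3p lie above all TC points, and the other panels overlap between all genotypes.

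No member was called differentially expressed (DE) by edgeR with a log2FC of at least 0.75 in either direction and a padj of at most 0.05. The count was 0 of 8 loci for TC against PC, where 3.52% of the 199 loci were called, 0 of 8 for TC against TQ, where 14.6% were, and 0 of 8 for PC against TQ, where 10.6% were. With the padj alone, 0 of 8 passed for TC against PC, where 9.55% of all loci did. For TC against TQ 1 of 8 passed (26.6% of all loci), and for PC against TQ 0 of 8 (13.6% of all loci). The levels of 0 of 8 loci were free of overlap between TC and PC (8.54% of all loci). Those of 1 of 8 were between TC and TQ (17.1% of all loci), and of 0 of 8 between PC and TQ (11.6%). DESeq2 also called 0 of 8 in each, against 6.53% (TC and PC), 17.1% (TC and TQ) and 15.1% (PC and TQ) of all loci. Scaled by total counts, edgeR called 1 of 8 between TC and TQ, miR-100-3p, against 15.6% of all loci. At an unadjusted p under 0.05 by edgeR, 0, 3 and 2 of the 8 loci passed, beside 58, 73 and 69 of the 199. The median log2FC over the 8 loci was −0.01, 0.37 and 0.39 in the 3 comparisons, and that of all tested loci was 0.02, 0.03 and 0.00227. The copies of a name are not independent of each other, so the 8 loci stand for 5 names.

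The let-7 family, the usual genomic neighbour of these miRNAs and a promoter of differentiation, also had no locus called. Of its 28 loci 14 were tested, with a median log2FC of 0.18 for TC against PC, 0.06 for TC against TQ and 0.00221 for the parental species. Of the 13 loci of the miR-10 family, whose genes lie in the Hox clusters, 4 were tested and 0 were called, with log2FC from −0.19 to 1.33 (TC against PC), −0.28 to 1.09 (TC against TQ) and −0.24 to 0.41 (PC against TQ). Of all tested loci, 3.52%, 14.6% and 10.6% were called in these comparisons, so few calls could be awaited in lists of this size. The miR-10 values of 1.33 and 1.09 were those of miR-10a-5p (padj 0.0781 and 0.0850 by edgeR). The study, which used DESeq2, reported miR-10a-5p as upregulated in TC against both parental species. By edgeR at an unadjusted p under 0.05, 6, 4 and 2 of the let-7 loci and 1, 2 and 0 of the miR-10 loci passed. Among all 199 tested loci 58, 73 and 69 did. With the padj alone, 2, 3 and 0 of the let-7 loci and 0, 1 and 0 of the miR-10 loci passed by edgeR, where 9.55%, 26.6% and 13.6% of all loci did, and both let-7g copies were among them in TC against PC and in TC against TQ with a log2FC of 0.68.

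The arm ratio of miR-100 was read from copy 2 of the 5p strand and from the 3p strand of mir-100-1. The hairpins are printed with both mature arms in capitals, because the 5p letters are common to both and the 3p letters are not.
dre-mir-100-1: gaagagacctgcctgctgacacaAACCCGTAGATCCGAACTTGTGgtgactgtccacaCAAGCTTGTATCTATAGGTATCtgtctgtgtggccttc
dre-mir-100-2: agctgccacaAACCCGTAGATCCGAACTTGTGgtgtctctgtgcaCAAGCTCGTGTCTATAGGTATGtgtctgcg
The 5p strand lies at bases 24 to 45 of the 96 of mir-100-1 and at bases 11 to 32 of the 75 of mir-100-2. The 3p strands lie at bases 59 to 80 and 46 to 67. Because a 5p read belongs to either hairpin, the ratio sets the 5p counts of both against the 3p counts of mir-100-1, and the 3p strand of mir-100-2 was at 0.

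As counted on zebrafish hairpins, the 5p strand of miR-100 outnumbered its 3p strand by more than 1000-fold in every fish. Whether bases that differ between zebrafish and these fish lowered the 3p counts, alike or unlike by genotype, was not tested. The ratio of 5p to 3p counts was 6058, 6156, 1847, 3913 and 15092 in PC fish 10, 3, 4, 5 and 8. It was 8590, 5599, 4230, 7466 and 4715 in TC fish 3, 4, 5, 6 and 8. The TQ fish 1, 2, 3, 6 and 8 had ratios of 3050, 2225, 4184, 2869 and 1803. Every TC fish was above every TQ fish, narrowly at 4230 against 4184, while PC spanned both. The log2 ratio was 12.36 ± 1.10 in PC, 12.53 ± 0.43 in TC and 11.41 ± 0.46 in TQ (SD, n = 5 each). TC was 1.12 higher than TQ on the log2 scale, or 2.18-fold, with an exact permutation p of 0.00794, the smallest that 5 fish against 5 can give. Adjusted over the 15 ratio comparisons it was 0.119, and a lone smallest p cannot pass 0.05 over 15 comparisons. TC vs. PC differed by 0.16 (exact permutation p = 0.762, padj 0.850) and PC vs. TQ by 0.96 (exact permutation p = 0.119, padj 0.272).

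The ratio of miR-99 to miR-100-5p was narrow in TQ and lower in most TC fish. For each 100 counts of miR-100-5p, miR-99 had 51.3, 37.2, 42.4, 40.9 and 53.6 counts in PC fish 10, 3, 4, 5 and 8. It had 42.2, 32.1, 39.2, 38.5 and 33.7 in TC fish 3, 4, 5, 6 and 8. In TQ fish 1, 2, 3, 6 and 8 it had 43.5, 44.7, 43.99, 41.5 and 43.1. The means were 45.1 ± 7.03 in PC, 37.1 ± 4.16 in TC and 43.4 ± 1.20 in TQ (SD, n = 5 each). Only TC fish 3, at 42.2, overlapped TQ, through TQ fish 6 at 41.5. TC was 0.23 lower than TQ on the log2 scale (exact permutation p = 0.0159, padj 0.119) and 0.27 lower than PC (exact permutation p = 0.0714, padj 0.214), and PC vs. TQ differed by 0.04 (exact permutation p = 0.706). With the copies summed, the log2 difference of TC from TQ was −0.252 with an exact permutation p of 0.00794 and a padj of 0.0595.

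**Figure D3:**
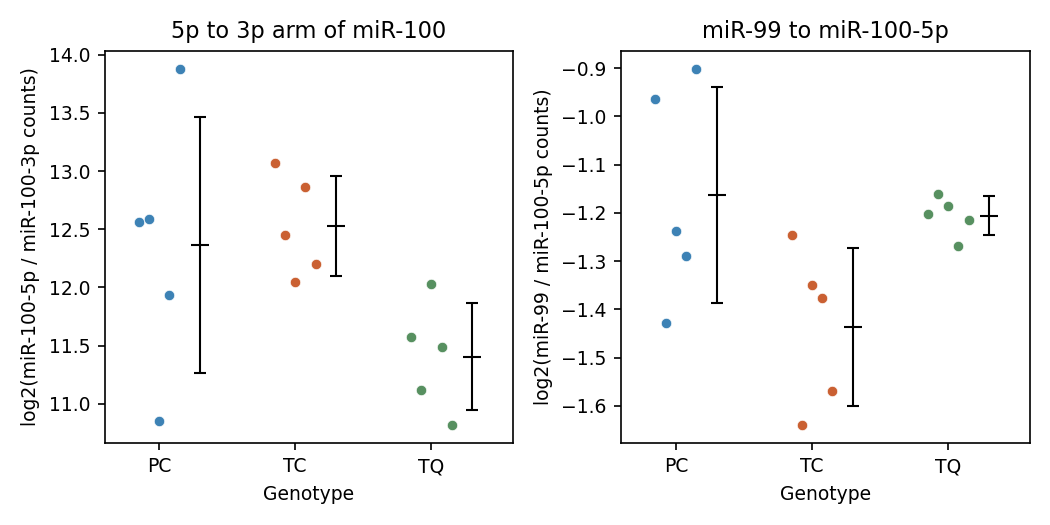
Log2 ratio of miR-100-5p to miR-100-3p counts and log2 ratio of miR-99 to miR-100-5p counts, by genotype. Points are fish and bars are the mean ± SD of 5 fish. The arm ratio of TC (12.53 ± 0.43) lies above that of TQ (11.41 ± 0.46) with no overlap, and PC spans both.

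The remaining ratios set miR-125a against the other strands. miR-125a had 265 ± 39.0 counts for each miR-125b-2-3p count in PC, 268 ± 50.0 in TC and 180 ± 71.0 in TQ (SD, n = 5 each). PC was 0.63 above TQ on the log2 scale (exact permutation p = 0.0476, padj 0.214) and TC 0.64 above TQ (exact permutation p = 0.0635, padj 0.214), while TC vs. PC differed by 0.01 (exact permutation p = 0.929). The ratio of miR-125a to miR-100-5p differed on the log2 scale by 0.10 between TC and PC, −0.20 between TC and TQ, and −0.30 between PC and TQ, with exact permutation p-values of 0.778, 0.579 and 0.452. No ratio comparison passed after adjustment.

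The 2 copies of a mature name were counted alike to different degrees, and the bases that flank the mature strand are printed to show how far the copies match. The mature strand is in capitals, with 6 bases on each side. A match is counted as the unbroken run of like bases that touches the mature strand.
dre-mir-100-1: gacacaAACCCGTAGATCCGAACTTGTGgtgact
dre-mir-100-2: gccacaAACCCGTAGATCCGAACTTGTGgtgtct
dre-mir-125a-1: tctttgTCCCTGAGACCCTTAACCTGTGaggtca
dre-mir-125a-2: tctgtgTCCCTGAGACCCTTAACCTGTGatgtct
dre-mir-99-1: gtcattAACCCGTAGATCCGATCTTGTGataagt
dre-mir-99-2: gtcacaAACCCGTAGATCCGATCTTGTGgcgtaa
The miR-100-5p copies matched for 4 bases before and 3 after the mature strand, and their counts, 6923973 and 6923976 over all fish, differed by at most 1 in any fish. The miR-125a copies matched for 2 bases before and 1 after, and their counts differed by 4 to 19 per fish, with copy 2 higher in 15 of 15 fish. The miR-99 copies already differed at the base next to the mature strand on both sides, although the first 4 printed bases before it were alike. Copy 1 had 2933302 counts against 2470764, a difference of 15.8% overall and of 8.91% to 21.5% in single fish, and was higher in 15 of 15.

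Across all names with at least 1000 counts, 18 pairs of copies had such a run of 1 or more bases on both sides, with a median count difference of 2.17e-05% and a range of 0 to 2.13%. The 12 pairs with a run on a single side had a median of 2.11% and a range of 0.00095% to 43.5%, and miR-99 was the only pair with no run on either. This grouping was chosen after the values were seen and was not tested. The ratio of miR-99 copy 1 to copy 2 was 1.19 in PC, 1.19 in TC and 1.15 in TQ, between 1.10 and 1.27 in all fish, with exact permutation p-values of 0.794 for TC against PC, 0.127 for TC against TQ and 0.151 for PC against TQ. Counts of the miR-100-5p and miR-125a copies are thus not separate measurements, and how the counting assigned reads that match both copies is not given in the sources used here.

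miR-99 and miR-100-5p rose and fell together over the fish. Their log2 CPM correlated with Pearson's r = 0.957 over the 15 fish (permutation p = 1e-05, the smallest that 100000 resamples can give, padj 0.0001 over the 10 pairs of members) and Spearman's rho = 0.871 (permutation p = 8e-05). Without TC fish 3 and PC fish 8, farthest from the median of miR-100-5p, r was 0.896. With each genotype centred on its own mean, r was 0.98, and 0.949 without PC fish 4 and PC fish 8. As shares of all counts, the pair had r = 0.882. The sequences of the pair differ at 1 base of 22, and whether reads of one were counted at the other was not tested.

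The arms of miR-100 went opposite ways over the 15 fish. miR-100-5p and miR-100-3p correlated with r = −0.707 over the 15 fish (permutation p = 0.00227, padj 0.0113) and rho = −0.771 (permutation p = 0.0012), and with r = −0.719 without TC fish 3 and PC fish 8. With the genotypes centred, r was −0.633 (permutation p = 0.0126, padj 0.0628), and without PC fish 4 and PC fish 8 it was −0.199 (permutation p = 0.513), so within genotypes the relation rested on those fish. On the uncentred levels, r was −0.646 (padj 0.0546) without PC fish 8. As shares of all counts the arms had r = −0.791, a scale on which a negative r is partly built in because shares sum to a fixed total.

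These levels share a scaling, and miR-100-5p is a large part of what is scaled. Its log2 CPM correlated with the log2 TMM factor at r = −0.967 and rho = −0.946 over the 15 fish. Each CPM was divided by that factor, so a negative r is partly built in and no p-value is given for it. With the log2 total count, r was 0.28 (permutation p = 0.314) and rho was 0.175 (permutation p = 0.532). With library sizes taken without these miRNAs and miR-199-5p, the r with miR-99 was 0.957 and that with miR-100-3p was −0.704 (padj 0.0117). Those sizes were again scaled by TMM, so these values cannot show whether the correlations depend on that scaling.

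On the CPM scale no pair with miR-125a passed the test. miR-125a and miR-100-5p had r = 0.509 (permutation p = 0.0526, padj 0.105) and rho = 0.507, and r = 0.263 without TC fish 3 and PC fish 8. The sign of this pair depended on the scale, with r = −0.608 (padj 0.044) between shares of all counts. Shares sum to a fixed total, of which miR-100-5p is a large part, so a negative r there is partly built in. miR-99 and miR-100-3p had r = −0.588 (padj 0.0562) and miR-125a and miR-100-3p had r = −0.561 (padj 0.0813). The other 5 pairs lay at or under 0.395, and 2 of the 10 pairs passed a padj of 0.05.

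**Figure D4:**
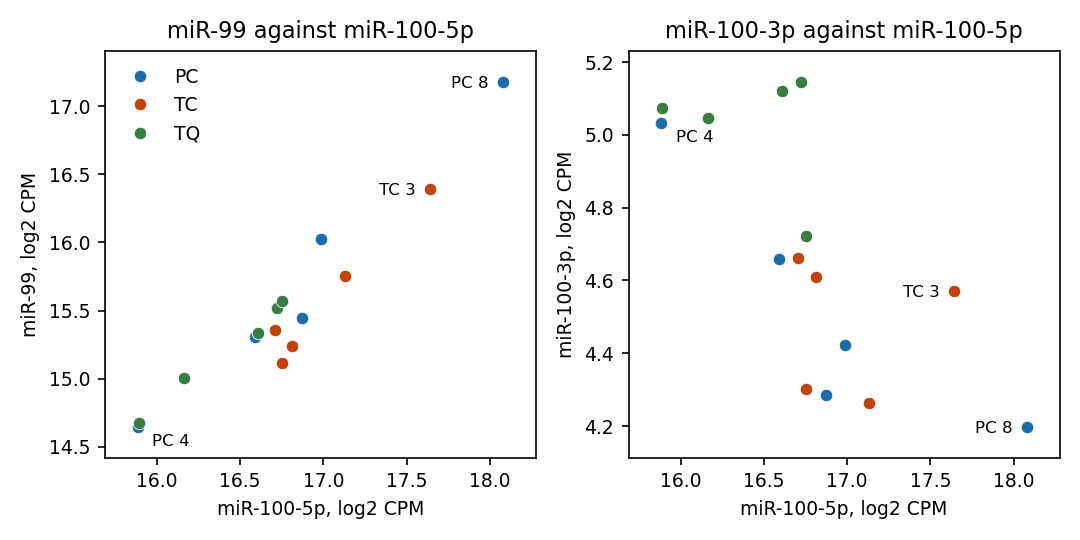
Log2 CPM of miR-99 and of miR-100-3p against that of miR-100-5p, each point a fish coloured by genotype. miR-99 climbs with miR-100-5p (r = 0.957), and miR-100-3p declines (r = −0.707) with 4 TQ fish and PC fish 4 at the upper left. PC fish 8, PC fish 4 and TC fish 3 are labelled.

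Among 151 other mature names, miR-99 had the level most like that of miR-100-5p over the 15 fish. Next came miR-221-5p with r = 0.881, miR-145-3p with 0.88, miR-27a-3p with 0.808, miR-30e-5p with 0.777 and miR-199-5p with 0.751. These values describe the same 15 libraries under the same scaling, and the median r of all names was −0.04, with 73 names above 0 and 4 above 0.8. miR-125a was 27th and miR-125b-2-3p 64th with r = 0.0967. miR-100-3p was 147th, close to the least alike names miR-20a-3p with −0.771, miR-222a-3p with −0.789 and miR-181a-2-3p with −0.829.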

How the data were processed

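Fast muscle of 15 untreated juveniles (5 PC, 5 TC, 5 TQ) was used. The authors prepared TruSeq small RNA libraries, sequenced them on a HiSeq instrument, removed adapters and reads of low quality or unfit length, aligned the rest to miRBase D. rerio precursors with Hisat2, placed mature sequences with GMAP, and counted with featureCounts. For the versions of Hisat2, GMAP and featureCounts, and for how multiply aligned reads were counted: not given in the sources used here. Deposited counts are whole reads per locus. The deposited normalized signal is the counts divided by DESeq2 size factors, and it was used here only to check the counts.

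The raw counts were divided by DESeq2 size factors estimated anew from them, and the 199 of 595 loci that then averaged at least 10 were kept. The counts were fitted over all fish by edgeR 4.0.16 (quasi-likelihood, TMM) in R 4.3.3, with Benjamini-Hochberg adjustment over all tested loci, and a call needed a log2FC of at least 0.75 and a padj of at most 0.05. The SE of each edgeR log2FC was derived from the test, as its absolute value divided by the square root of the F statistic. DESeq2 1.42.0 was an alternative. Shares and log2 ratios were compared by two-sided exact permutation tests and correlations by 100000 permutations (numpy 2.4.6, with ranks from scipy 1.17.1). Where a name has copies, the copy with the higher total was used. Sequences and places came from the study's supplementary precursor and alignment texts. Same-genotype libraries differed beyond sampling noise (chi-square per degree of freedom of at least 93.19 in 30 pairs).

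Named miRNAs were all members, plus the 5 names most like and the 3 least like miR-100-5p. The members, lists and rules were chosen with earlier results of these data known. Alternatives changed the scaling, filter, test, copies, genotypes fitted, replicate block, share denominator, pseudocount and single fish left out.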

Additional observations from a re-analysis of the deposited data

Results flagged for a closer look

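The level of miR-100-3p in TQ fish 3 stood apart from the other TQ fish. It was 26.4 CPM against 33.0 CPM in the nearest TQ fish, and this gap was 0.735 of the range of the 5 fish, above Dixon's critical value of 0.71. Of 33 such groups of 5 fish, 1 passed, and chance flags about 1 in 20.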

How the results depend on the processing

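Fish were not treated as paired by number. Same-numbered fish of different genotypes had deviations correlated between −0.454 and 0.257 in 9 pairs, and 2 of 12 fish correlated best with their own number. So few pairs cannot show whether the numbers mark a pairing. PC fish 10, TQ fish 1 and TQ fish 2 have numbers found in a single genotype. A replicate block therefore gave these fish no weight in the comparisons. It gave 1, 29 and 9 calls over all loci, against 7, 29 and 21 without it, and 0 members in each comparison. Whether the changes came from the loss of these fish or from adjusting for number was not tested. Under the block the log2FC of miR-100-5p turned to 0.0151 in TC vs. PC. That of miR-125b-2-3p, highest in TQ fish 1 and 2, turned to 0.187 between TC and TQ and to 0.000993 between PC and TQ. Against TQ the block gave 0.93 (TC, padj 0.145 by edgeR) and 0.92 (PC, padj 0.225 by edgeR) for miR-100-5p. For miR-99 it gave 0.80 (TC, padj 0.259 by edgeR) and 1.04 (PC, padj 0.238 by edgeR). Scaled by total counts, the median log2FC of all loci moved to −0.10, −0.38 and −0.25, 1 member was called in TC vs. TQ (miR-100-3p, −0.93, padj 0.0489 by edgeR, with 15.6% of all loci called), and the log2FC turned to −0.00741 for miR-99 and −0.0489 for miR-125a in TC vs. TQ and −0.16 for miR-125a in PC vs. TQ. It was then 0.31 for miR-99 between PC and TQ, and −0.72 and −0.83 for miR-125b-2-3p in TC and PC against TQ. Without a log2FC minimum, 1 member was called in TC vs. TQ, with 26.6% of all loci called. Without miR-199-5p in the denominator, the members' mean share was 50.5%, and the miR-100-5p difference in TC vs. PC was 0.165 points.

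Between shares of all counts, 4 pairs passed, and r turned to −0.608 (miR-100-5p with miR-125a), −0.461 (miR-100-5p with miR-125b-2-3p), −0.581 (miR-99 with miR-125a), −0.299 (miR-99 with miR-125b-2-3p) and 0.456 (miR-125a with miR-100-3p). Shares sum to a fixed total, so the negative values with miR-100-5p and miR-99 are partly built in. Without PC fish 4 and PC fish 8, chosen after seeing the data, 1 pair passed. The r was then −0.605 (padj 0.0806) for the miR-100 arms, and −0.189, −0.123 and −0.0516 for miR-125b-2-3p with miR-100-5p, miR-99 and miR-125a. The log2FC in TC vs. PC was 0.22 for miR-100-5p, 0.02 for miR-99 and 0.02 for miR-100-3p. Log2 ratios turned to −0.0207 (miR-99 to miR-100-5p, PC vs. TQ), −0.0122 (miR-125a to miR-125b-2-3p, TC vs. PC) and 0.0012 (miR-99 copies, TC vs. PC).

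Leaving out single fish gave ranges that crossed 0 for results that passed no test. In TC vs. PC the log2FC ran from −0.21 to 0.41 (miR-100-5p), −0.61 to 0.22 (miR-99) and −0.15 to 0.15 (miR-100-3p). Share differences ran from −5.61 to 1.74 points (all members, TC vs. PC), −2.27 to 2.21 (miR-100-5p, TC vs. PC), −1.13 to 0.376 (miR-99, TC vs. TQ), −0.0463 to 0.0362 (miR-125a, TC vs. TQ) and −0.0724 to 0.0101 (miR-125a, PC vs. TQ). Log2 ratios ran from −0.0233 to 0.109 (miR-99 to miR-100-5p, PC vs. TQ), −0.22 to 0.54 (miR-100 arms, TC vs. PC), −0.0816 to 0.0914 (miR-125a to miR-125b-2-3p, TC vs. PC), −0.123 to 0.266 (miR-125a to miR-100-5p, TC vs. PC), −0.364 to 0.0201 (the same ratio, TC vs. TQ) and −0.0253 to 0.0145 (miR-99 copies, TC vs. PC). For miR-125b-2-3p, r ran from −0.08 to 0.31 with miR-100-5p, −0.01 to 0.29 with miR-99 and −0.02 to 0.26 with miR-125a. For the miR-100 arms r ran from −0.756 to −0.646, and 1 to 4 pairs passed. The causes were not tested. Of 1171 values under an alternative, 1099 kept their direction and their side of the threshold or, with no test, moved by less than the spread between fish.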
